A study of Mus musculus with 4 samples.

Results

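Gene desert peaks were defined here as autosomal sites of open chromatin whose nearest edge lay more than 200 kb from the start of every protein-coding transcript of the GENCODE vM21 annotation. By this rule, 10590 of the 114745 autosomal peaks (9.23%) were gene desert peaks, out of 117282 peaks in all on the mouse genome build mm10. The rule used position alone and none of the measured values. ATAC-seq, in which a transposase cuts and tags accessible DNA, had been performed on cultured mouse mesenchymal stem cells (MSCs) of old mice (18-22 months, 2 samples) and young mice (3-5 months, 2 samples). Cells of both ages were kept only at 2% O2, and age was the only difference between the groups that the labels give. The labels name no batch. The labels give neither the strain and sex of the mice, nor how many animals a sample came from, nor whether the samples of a group came from separate animals or cultures, so that p-values measure the spread between these samples, which may be technical.

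Gene deserts are long stretches of the genome without protein-coding genes, often found around genes that control development. They can hold enhancers, DNA elements that bind transcription factors and contact a distant promoter by looping of the chromatin. The deserts beside Sox9, Myc and Epha4 are well-known examples, and genes of the skeleton and the limb are controlled in part from such distances.

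Library totals recovered from the values ranged from 28259470 to 32559794 counts per sample, and 1 count equalled a value of 0.307 to 0.354. All values below are such counts scaled to 10000000 per library, not divided by the width of the peak, so levels are compared only within a peak or per kb. Mitochondrial peaks took between 13.5% and 15.7% of the summed signal in 3 samples and 6.52% in old replicate 2. Peaks lay at the promoters of 10 of 10 mesenchymal marker genes (highest mean value per gene 19.99 to 1148). Of 7 blood markers, 1 had a promoter peak (Spi1, mean value 10.6), and Ptprc, which encodes the pan-leukocyte antigen CD45, had none. Of 4 endothelial markers, Kdr and Pecam1 had one (27 and 9.16).

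The sequences of the central 300 bases of 7 gene desert peaks follow, from the plus strand of GRCm38, the assembly that mm10 names (RefSeq sequence). Among the peaks with the largest significant falls in old MSCs, those at chr1:76143051-76143350 (nearest coding start Slc4a3) and chr12:56111601-56111900 (Mbip) are shown. The 3 with the largest significant rise lay at chr3:4434801-4435100 (Zfhx4), chr13:68258301-68258600 (Mtrr) and chr12:42032851-42033150 (Lrrn3). A peak with one of the highest summed values, at chr13:6191951-6192250 (Klf6), and the peak farthest from any coding start, at chr14:91326651-91326950 (Pcdh9), are shown for their matches to motifs of factors that bind distal elements. The windows of the other peaks of highest summed value that were searched are not printed, and held 0 (Bcl11b) and 1 (Tbl1xr1, TEAD) such matches. None of these windows overlapped a protein-coding gene. Capitals mark matches on either strand to AP-1 (TGANTCA), RUNX (TGTGGT) or TEAD (GGAATG).
Slc4a3 peak: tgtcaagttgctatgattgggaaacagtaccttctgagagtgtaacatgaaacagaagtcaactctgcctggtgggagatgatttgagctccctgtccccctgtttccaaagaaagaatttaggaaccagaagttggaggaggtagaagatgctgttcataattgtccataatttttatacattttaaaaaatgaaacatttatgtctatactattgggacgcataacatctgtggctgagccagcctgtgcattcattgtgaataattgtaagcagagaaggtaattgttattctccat
Mbip peak: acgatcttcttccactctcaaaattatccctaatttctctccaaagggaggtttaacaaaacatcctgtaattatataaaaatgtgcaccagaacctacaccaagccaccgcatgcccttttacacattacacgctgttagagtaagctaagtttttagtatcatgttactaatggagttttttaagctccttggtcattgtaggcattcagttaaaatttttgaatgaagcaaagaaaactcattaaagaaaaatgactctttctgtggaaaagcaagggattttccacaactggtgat
Zfhx4 peak: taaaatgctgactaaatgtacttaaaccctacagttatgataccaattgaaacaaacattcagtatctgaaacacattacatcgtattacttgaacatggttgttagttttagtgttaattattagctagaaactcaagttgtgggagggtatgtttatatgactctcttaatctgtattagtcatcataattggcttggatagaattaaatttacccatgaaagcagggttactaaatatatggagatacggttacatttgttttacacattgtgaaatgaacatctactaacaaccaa
Mtrr peak: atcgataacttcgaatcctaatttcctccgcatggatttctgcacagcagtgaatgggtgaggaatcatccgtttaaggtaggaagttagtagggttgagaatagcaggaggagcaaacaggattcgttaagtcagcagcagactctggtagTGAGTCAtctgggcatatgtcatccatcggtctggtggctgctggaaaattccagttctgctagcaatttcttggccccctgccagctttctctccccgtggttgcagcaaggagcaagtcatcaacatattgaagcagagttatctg
Lrrn3 peak: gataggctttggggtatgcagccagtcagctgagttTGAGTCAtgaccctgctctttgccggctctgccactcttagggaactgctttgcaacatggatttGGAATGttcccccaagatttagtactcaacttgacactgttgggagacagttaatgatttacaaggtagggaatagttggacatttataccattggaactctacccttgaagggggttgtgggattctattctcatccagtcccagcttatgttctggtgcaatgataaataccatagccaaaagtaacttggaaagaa
Klf6 peak: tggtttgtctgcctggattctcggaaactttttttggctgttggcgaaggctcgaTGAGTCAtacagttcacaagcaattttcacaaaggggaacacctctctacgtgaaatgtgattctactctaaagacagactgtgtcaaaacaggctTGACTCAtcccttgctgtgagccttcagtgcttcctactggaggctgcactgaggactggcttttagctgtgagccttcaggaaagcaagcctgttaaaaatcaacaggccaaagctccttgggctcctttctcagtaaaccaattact
Pcdh9 peak: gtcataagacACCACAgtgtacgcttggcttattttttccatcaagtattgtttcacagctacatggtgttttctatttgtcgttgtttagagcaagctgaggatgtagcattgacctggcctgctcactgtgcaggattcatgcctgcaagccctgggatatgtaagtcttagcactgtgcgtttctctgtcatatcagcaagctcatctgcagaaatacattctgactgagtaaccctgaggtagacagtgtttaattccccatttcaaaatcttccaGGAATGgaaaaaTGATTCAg
The Klf6 window held 2 AP-1 matches, and the Pcdh9 window held 1 match each to RUNX, TEAD and AP-1. Among the 5 changed peaks, AP-1 matches stood in the windows near Mtrr and Lrrn3, which rose, and a TEAD match stood in that near Lrrn3.

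To describe where these peaks lie, their positions were set against the annotation. The median distance to the nearest coding start was 309827 bp and the largest was 2558648 bp. Distances above 500 kb were found for 1905 peaks and above 1 Mb for 239. The genome beyond 200 kb of any coding start covered 602 Mb, 25.1% of the sequenced autosomes, and held 17.6 peaks per Mb compared with 58.0 peaks per Mb elsewhere. Peaks in the deserts were therefore sparser, and their median gap to the next peak was 5800 bp compared with 3600 bp for all autosomal peaks. By chromosome, gene desert peaks made up between 5.68% (chromosome 5) and 14% (chromosome 13) of the peaks.

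Distance from a coding start did not always mean that no gene was there. Of the 10590 peaks, 2025 lay inside the body of a long protein-coding gene, 141 of them over an exon. A long noncoding RNA gene was overlapped by 1679 peaks, and 457 lay within 1 kb of the annotated start of some transcript of any kind. When transcripts of every kind were counted, only 621 peaks were still more than 200 kb from a start.

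Gene desert peaks were narrow and low in GC. Their median width was 900 bp compared with 1200 bp for all autosomal peaks and 2600 bp for peaks up to 1 kb from a coding start. The median GC content was 42.4%, compared with 46.1% and 51.8%, and the median number of CpG dinucleotides per kb was 7.14, compared with 11 and 31.7. GC content fell further with distance, to 38.2% above 1 Mb. Repeats covered a median of 13% of a gene desert peak and 14.1% of any autosomal peak, and 12 gene desert peaks resembled mitochondrial DNA (none of them changed at an adjusted p under 0.05).

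Matches to motifs of factors that bind distal elements were more common in the deserts than at promoters. AP-1, the dimer of FOS and JUN proteins that opens enhancers in fibroblast-like cells, had a match in the central 300 bases of 29.1% of gene desert peaks, 21.4% of all autosomal peaks and 7.47% of peaks up to 1 kb from a coding start. For RUNX, the family of the osteoblast regulator Runx2, the shares were 29.3%, 26.1% and 15.8%. For TEAD, the DNA-binding partners of YAP, they were 24.9%, 20.8% and 13.1%. Peaks 10 to 200 kb from a coding start stood between deserts and promoters, with 23.3% for AP-1, 27.8% for RUNX and 22.0% for TEAD. For RUNX and TEAD these shares were closer to those of the deserts than to those of promoters. Motifs of promoters and of chromatin boundaries showed the opposite order between deserts and all peaks. The GC box (GGGCGG), bound by SP and KLF proteins, had a match in 2.81% of gene desert peaks and 9.67% of all autosomal peaks, an ETS motif (CCGGAAG) in 0.850% and 2.19%, and part of the motif of CTCF, the insulator protein, in 2.07% and 4.26%. These shares are descriptions, in which base composition differs between the classes as given above; its part was not tested.

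**Figure D1:**
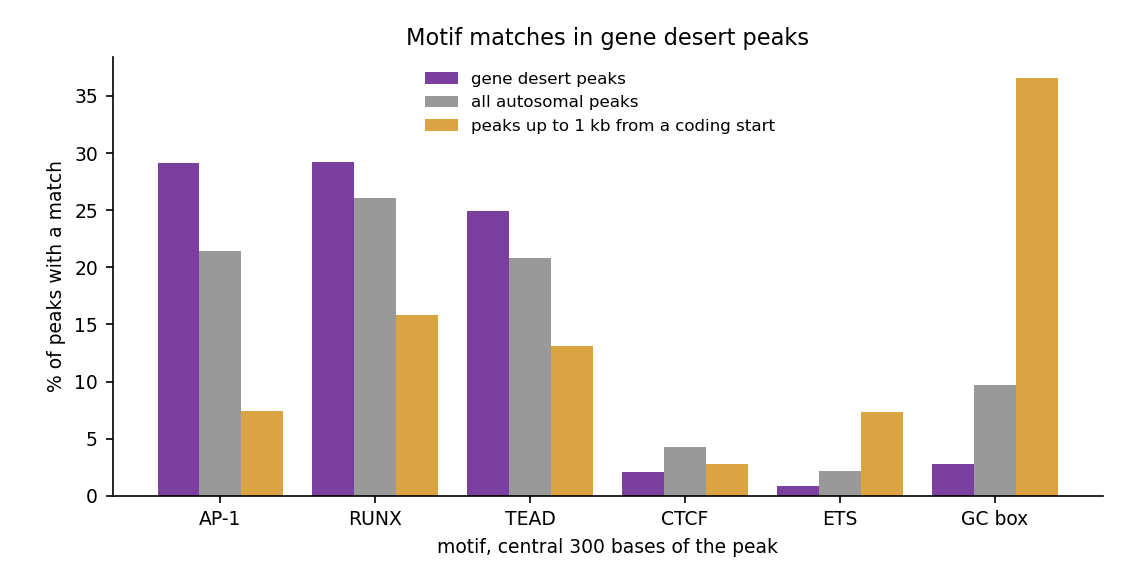
Share of peaks (%) with a motif match in the central 300 bases, for gene desert peaks, all autosomal peaks and peaks up to 1 kb from a coding start. AP-1, RUNX and TEAD matches were most frequent in gene desert peaks, and GC box and ETS matches in peaks near a start.

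The gene desert peaks with the highest deposited values, which sum over the width of a peak, were regions of several kb. The highest mean value belonged to a peak of 13200 bp over an exon of Celf4 (RNA-binding protein), with deposited values of 420 and 412 in the old replicates and 527 and 619 in the young replicates. A region of 8200 bp in the Bcl11b desert (zinc-finger transcription factor) had values of 305 and 338 in old and 504 and 523 in young MSCs. In the Klf6 desert (zinc-finger transcription factor), 5600 bp had 293 and 427 in old and 426 and 477 in young MSCs. These were followed by the regions nearest Tbl1xr1 (nuclear corepressor subunit) with 306, 342, 409 and 519, and nearest Nfe2l3 (leucine zipper transcription factor) with 295, 452, 349 and 407, in the order old replicates 1 and 2 and young replicates 1 and 2. Per kb, the mean values of the 5 regions were 37.5, 50.9, 72.4, 42.8 and 29.8 in the order named, compared with a median of 12.9 and a highest value of 147 (a peak of 2100 bp nearest to Pcmtd1) over all gene desert peaks. Deposited values overlapped between the ages at Klf6 and Nfe2l3 only. After the RLE scaling described below, the ages overlapped at Celf4 and Klf6 instead. RLE-scaled values at Nfe2l3 were then higher in old (364 and 449) than in young MSCs (327 and 355), and at Bcl11b and Tbl1xr1 they were lower in old MSCs. Over all tested peaks, 24.2% had both old samples below both young ones and 23.2% above them. None of the 5 regions changed significantly after scaling (adjusted p between 0.115 and 0.854, limma). The widest gene desert peak, 16600 bp over an exon of Tns3, which encodes a focal adhesion protein, had 272 and 312 in old and 360 and 432 in young MSCs (adjusted p = 0.61).

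At the other end stood the 3 most remote peaks, all nearest to Pcdh9, a protocadherin gene, more than 2200 kb away. The farthest had 16 and 11 counts in the old replicates and 28 and 37 counts in the young replicates. The next had 5 and 5 compared with 15 and 14 counts, and the third 5 and 6 compared with 19 and 5 counts. Young counts were the higher ones at the first and second of them, while the groups overlapped at the third. None of the 3 changed significantly (adjusted p between 0.22 and 0.66). Counts of 3 or fewer, the number that a count of 0 cannot exclude, were found at 418 (3.95%) and 368 (3.47%) gene desert peaks in old replicates 1 and 2, and at 143 (1.35%) and 102 (0.963%) in young replicates 1 and 2. Over all autosomal peaks the shares were 2.31%, 1.86%, 1.02% and 0.802%.

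The 200 kb limit cut through a continuum of distances. The 3 peaks just inside it, 200006 to 200032 bp from the starts of Ppp2r3a, Cdk14 and Xxylt1, had RLE-scaled log2 fold changes of -0.37, -0.75 and -0.44. The 3 just outside, 199960 to 199977 bp from Sox9, Rngtt and Gm17728, had 0.21, 0.40 and -0.30. None of these peaks changed significantly (adjusted p between 0.23 and 0.66, limma), and the ages overlapped at those near Ppp2r3a and Gm17728. So few peaks cannot show whether the change differed across the limit.

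To compare gene desert peaks between the ages, the level of each peak was first taken as deposited. The median value was 9.44 and 10.1 in the old replicates and 12.4 and 13.9 in the young replicates. All autosomal peaks had medians of 13.3 and 16 in old and 17 and 18.02 in young MSCs. In either set of peaks the 2 medians of old MSCs were the lower ones. On the scale of log2(value + 1), the median difference of old minus young was -0.40 at gene desert peaks and -0.27 at all autosomal peaks, and 79.8% of gene desert peaks were lower in old MSCs compared with 74.3% of all autosomal peaks. In bulk samples, fewer cells with an open site and a less open site in each cell cannot be told apart.

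Most of that difference was shared with all peaks and moved with the scaling. After division by RLE factors, which set the typical peak equal between samples and were 0.813 and 1.01 for old and 1.07 and 1.15 for young replicates, the median log2 fold change was -0.14 at gene desert peaks and 0.01 at all autosomal peaks. The samples of 1 age also differed from each other at these peaks. The median difference was -0.02 between old replicate 1 and young replicate 1, -0.11 between old replicate 1 and young replicate 2, -0.17 between old replicate 2 and young replicate 1, and -0.26 between old replicate 2 and young replicate 2. Old replicate 1 exceeded old replicate 2 by a median of 0.16, and young replicate 1 was below young replicate 2 by a median of 0.10 (log2 difference -0.10). The median change with age was thus of the same size as the differences between replicates. The share of the summed autosomal signal that fell into gene desert peaks overlapped between the ages, at 5.29% and 4.71% in old and 5.16% and 5.55% in young MSCs.

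Between the ages, the RLE-scaled change followed the distance from a coding start. The median log2 fold change was -0.02 up to 1 kb, 0.09 from 1 to 10 kb, 0.04 from 10 to 50 kb and -0.03 from 50 to 200 kb. In the deserts it was -0.12 from 200 to 500 kb, -0.21 from 500 kb to 1 Mb and -0.23 above 1 Mb. In 3 of the 4 old-young pairs each step beyond 10 kb was lower than the one before, whereas between old replicate 1 and young replicate 1 the class above 1 Mb stood at 0.07. The median of gene desert peaks was below that of the other peaks of the same chromosome on 19 of 19 autosomes, by 0.03 on chromosome 6 (difference -0.03) to 0.23 on chromosome 4 (difference -0.23).

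**Figure D2:**
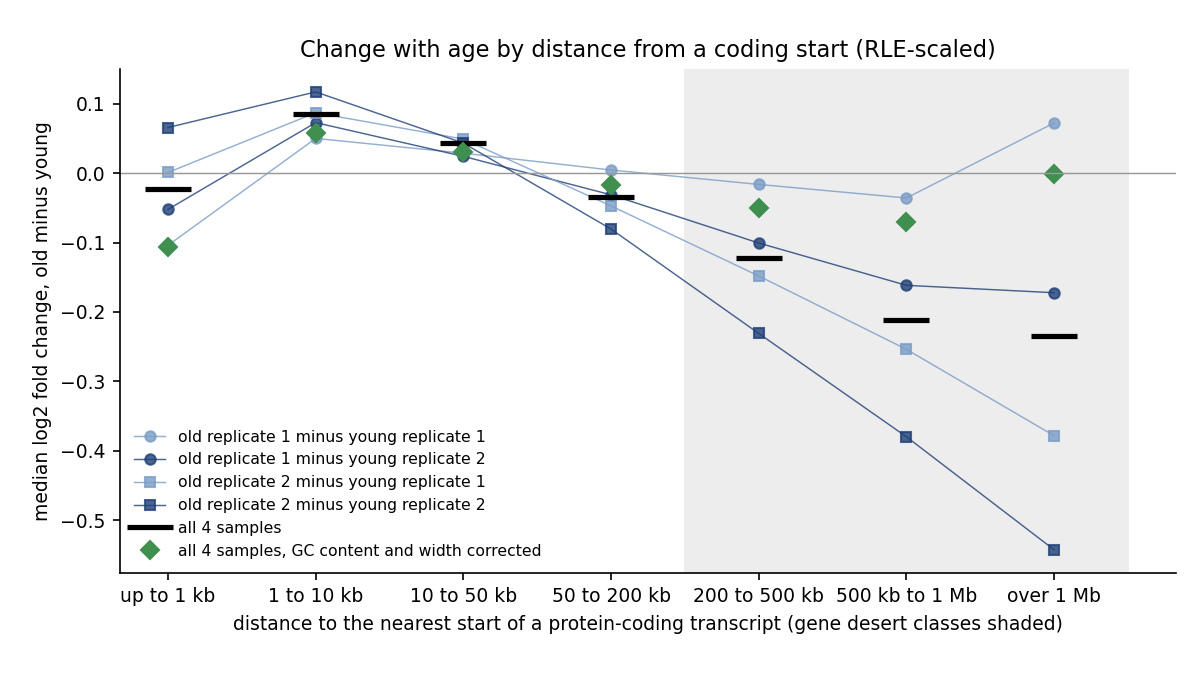
Median RLE-scaled log2 fold change (old minus young, y axis) of autosomal peaks in 7 classes of distance from a coding start (x axis), for each old-young pair of samples, for all 4 samples together (black bars) and after correction for GC content and width (green diamonds). In the shaded gene desert classes the black bars sit at -0.12, -0.21 and -0.23, and the pairs fan out. The diamonds there sit at -0.05, -0.07 and 0.00, and that of peaks up to 1 kb from a coding start is lower, at -0.11.

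GC content moved with this change. When autosomal peaks were cut into 5 bins of about equal size by GC content, the lowest bin held 4705 of the gene desert peaks, and the median log2 fold change there was -0.25 at gene desert peaks and -0.15 at the other peaks. In the highest bin, with 363 gene desert peaks, the medians were 0.05 and 0.10. Gene desert peaks had the lower median in each of the 5 bins, by 0.03 to 0.10 (differences -0.03 to -0.10). Within bins of width the differences were -0.05 to -0.22, and within bins of repeat content -0.13 to -0.20. A smooth dependence on GC content and width was then removed from each sample. The median difference of gene desert peaks from all autosomal peaks was -0.04 after that, in place of -0.14. Above 1 Mb the median log2 fold change was 0.00. Gene desert peaks were then no longer lowest, as their corrected median was -0.05 and that of peaks up to 1 kb from a coding start -0.11.

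**Figure D3:**
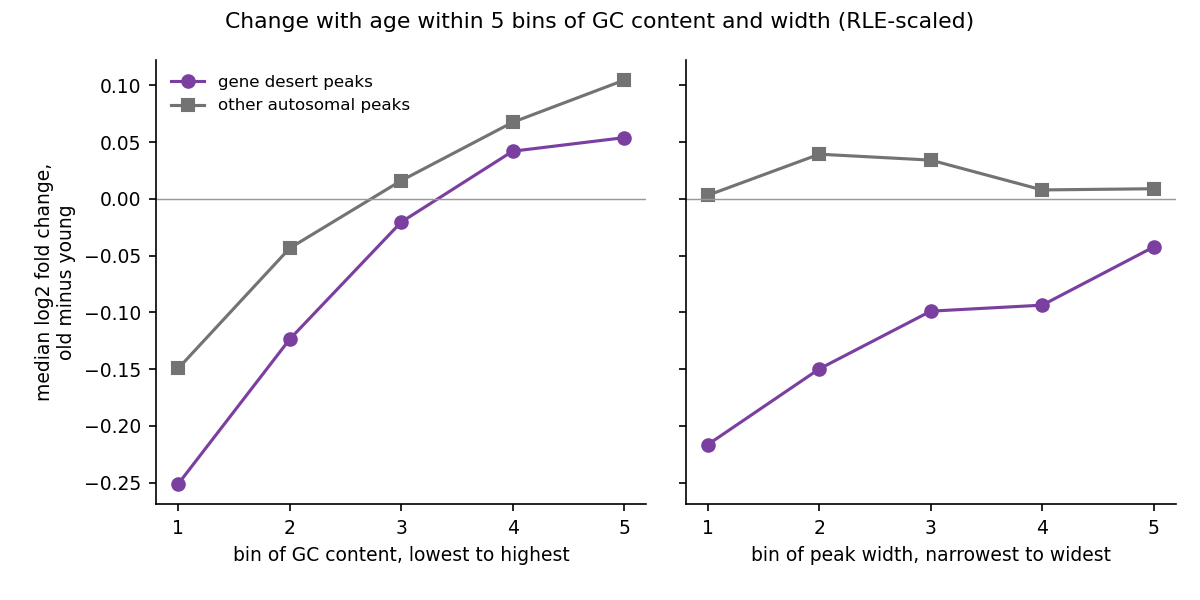
Median RLE-scaled log2 fold change (y axis) of gene desert peaks and of other autosomal peaks in 5 bins of GC content (left) and of peak width (right), cut over all autosomal peaks. Both lines rise with GC content, and gene desert peaks lie below the other peaks in every bin of both.

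Read peak by peak, 3526 gene desert peaks (33.3%) had both old samples below both young ones, where the share over all tested peaks was 24.2%. In the opposite direction, 1846 gene desert peaks (17.4%) had both old samples above both young samples, where the share over all tested peaks was 23.2%. With 2 samples per age these counts carry no test.

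All 10590 gene desert peaks were tested individually with limma, with p-values adjusted over the 117282 peaks of the table. At an adjusted p under 0.01, 18 gene desert peaks (0.170%) fell in old MSCs, where 0.0307% of all tested peaks fell, and 4 (0.0378%) rose, where 0.0256% of all tested peaks rose. Gene desert peaks thus held 18 of the 36 falling and 4 of the 30 rising peaks. At an adjusted p under 0.05, 225 fell (2.12%, background 0.771%) and 35 rose (0.331%, background 0.351%). At 0.05, the share that fell was 1.84% between 200 and 500 kb, 3.30% between 500 kb and 1 Mb and 4.18% above 1 Mb (160, 55 and 10 peaks). At 0.01 the shares were 0.115%, 0.480% and 0% (10, 8 and 0 peaks), so the order did not hold above 1 Mb. The test held no correction for GC content, which fell with distance. The number of calls moved when any 1 sample was left out, as given in the closing section. Without 1 sample each, the log2 fold change at the largest fall (nearest to Kif16b) ranged from -2.88 to -1.87. At the largest rise (nearest to Zfhx4) it ranged from 2.33 to 2.80. Why the calls moved was not tested.

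The largest fall was found at a peak nearest to Kif16b, which encodes a kinesin motor of endosomes. Its RLE-scaled values were 9.04 and 3.96 in old and 28.5 and 44.5 in young MSCs, from 21 and 13 compared with 86 and 150 counts. The log2 fold change was -2.38 (SE 0.33, adjusted p = 0.0057). Old replicate 2 had the lowest value and young replicate 2 the highest. A peak nearest to Mbip, which encodes a subunit of a histone acetyltransferase complex, had 2.58 and 3.05 in old and 15.9 and 18.1 in young MSCs (log2 fold change -2.24, adjusted p = 0.0081).

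The desert between Slc4a3, which encodes an anion exchanger, and Epha4, which encodes an ephrin receptor kinase, held 3 of the 18 falling peaks, all within chr1:76038801-76143700. The strongest had RLE-scaled values of 5.16 and 3.66 in old and 21.6 and 27.9 in young MSCs (log2 fold change -2.25, SE 0.31, adjusted p = 0.0052). The second had 17.2 and 8.23 compared with 44.1 and 55.5 (-1.96, adjusted p = 0.0080), and the third 6.02 and 7.32 compared with 26.5 and 31.2 (-1.96, adjusted p = 0.0062). Across the whole interval of 1828 kb, 28 gene desert peaks had a median log2 fold change of -0.75, the lowest of the 173 intervals with at least 20 such peaks. The median was -0.72, -0.76, -0.90 and -1.04 in the 4 pairs of samples and -0.72 after the GC and width correction, and 19 of the 28 peaks had both old samples below both young samples (background 24.2%). This interval was singled out for its values, so its median is a description.

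The other falls were found beside genes of various functions. Nearest to a gene of the 3 lists described below lay 0 of the 18 falls. Of all gene desert peaks, 85.2% lay nearest to no listed gene. Of the 4 rises, 1 lay nearest to a listed transcription factor gene and 1 to a listed signalling gene. Near Nova1 (neuronal splicing regulator), RLE-scaled values were 7.32 and 4.88 in old and 34.2 and 29.1 in young MSCs (log2 fold change -2.22, adjusted p = 0.0043). Near Nrcam (neuronal cell adhesion molecule) they were 7.75 and 6.10 compared with 27.5 and 29.4 (-1.90, adjusted p = 0.0070), at a peak of which repeats covered 65.9%. Near Efnb2, which encodes the ligand ephrin-B2, they were 3.44 and 2.44 compared with 17.9 and 15.7 (-2.19, adjusted p = 0.0088). The peaks nearest to Slco4c1 (organic anion transporter) and Olfm4 (secreted glycoprotein) had log2 fold changes of -2.08 and -2.0. The other 8 falls, nearest to Mgmt, Tapt1, Tlr4, Ice1, Gm21863, Castor2, Galc and, within an intron, Sdk1, ranged from -1.76 to -1.40. In RLE-scaled values, old replicate 2 was below old replicate 1 in 16 of the 18 falls and in 4 of the 4 rises. Over all gene desert peaks, as given above, old replicate 1 exceeded old replicate 2 by a median of 0.16. The peak nearest to Gm21863 differed from the others in its GC content of 65.4%.

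The largest rise was found 783226 bp from Zfhx4, which encodes a zinc-finger homeobox transcription factor. Its RLE-scaled values were 21.1 and 14.9 in old and 1.99 and 2.37 in young MSCs, from 49 and 49 compared with 6 and 8 counts (log2 fold change 2.56, SE 0.35, adjusted p = 0.0049). The peak nearest to Mtrr (methionine synthase reductase) had 22.8 and 17.4 compared with 3.65 and 2.08 (2.47, adjusted p = 0.0057), and repeats covered 52.0% of it. The peak nearest to Lrrn3 (leucine-rich repeat protein of neurons) had 22.4 and 15.9 compared with 2.65 and 2.97 (2.38, adjusted p = 0.0057). All 3 were weak in young MSCs, with 6 to 11 counts per sample. A stronger site rose 272619 bp from Spry2, which encodes an inhibitor of receptor tyrosine kinase signalling. It overlapped the microRNA gene Mir6390 and the long noncoding RNA genes 9330188P03Rik and Gm6145, and had RLE-scaled values of 92.1 and 90.6 in old and 39.1 and 36.5 in young MSCs (log2 fold change 1.25, SE 0.19, adjusted p = 0.0088).

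**Figure D4:**
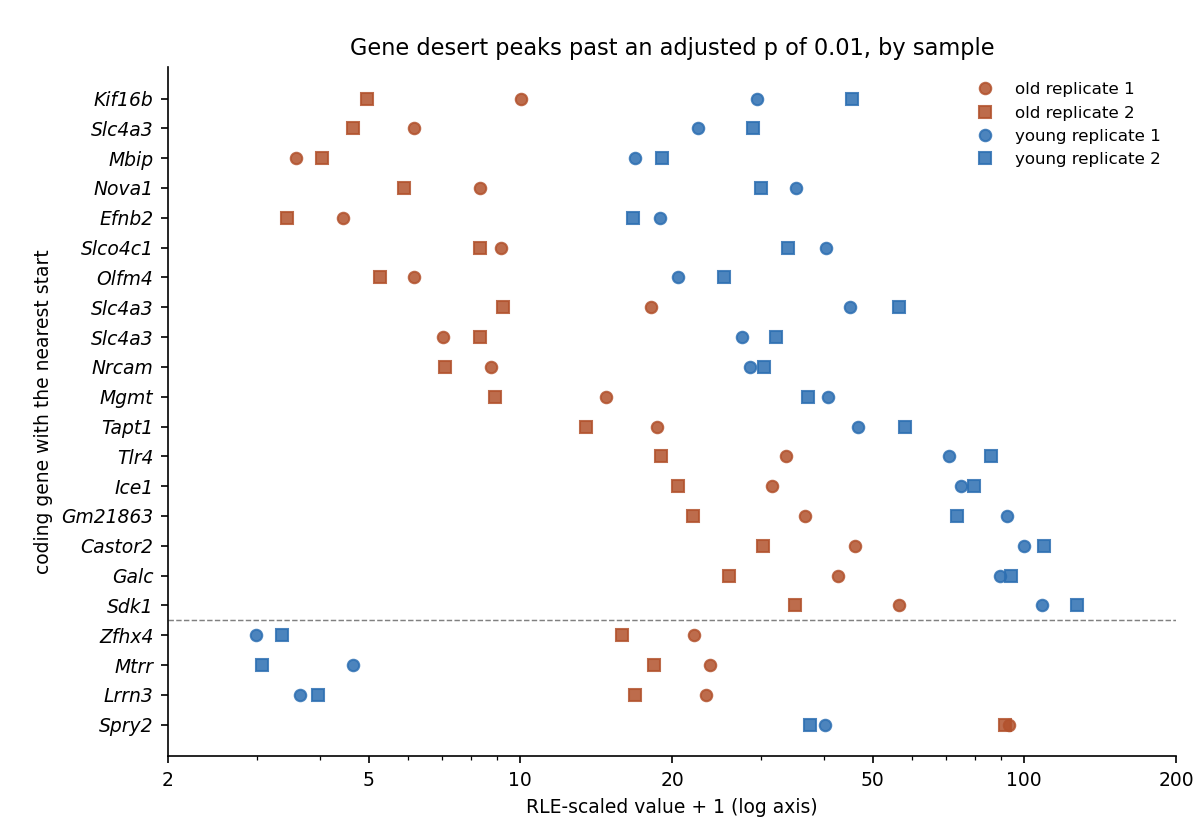
RLE-scaled values plus 1 (log axis) of the 22 gene desert peaks past an adjusted p of 0.01, by sample, with the coding gene of the nearest start; above the dashed line the 18 that fell, below it the 4 that rose in old MSCs. In 16 of the 18 rows that fell and in 4 of the 4 that rose, old replicate 2 has the lower value of the old samples.

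Peaks were next grouped by the pair of coding starts between which they lay. They fell into 902 intervals, of which the 10 richest held 693 peaks (6.54%). The interval between Zeb2, a repressor of epithelial genes, and the activin receptor gene Acvr2a held 101, and that between the growth regulator Myc and Gsdmc held 85. The next were Nmbr-Cited2 with 69, Adamts5-N6amt1 and Ebf1-Clint1 with 65 each, Klf4-Gm26657 with 64, Jag1-Btbd3 with 63, Kcnj2-Sox9 with 62, Wwox-Maf with 60 and Cdh11-Cdh5 with 59. Of the peaks between Wwox and Maf, 47 lay in a coding gene body, and 23 did between Ebf1 and Clint1, whereas none did in the other 8. At an adjusted p under 0.05, 6 of the 693 peaks in the 10 intervals fell, of 225 falls in all. Of the 35 rises, 0 lay there. Over all gene desert peaks 2.12% fell and 0.331% rose, and over all tested peaks 0.771% fell and 0.351% rose.

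Median changes ran in both directions among them. Medians were below 0 in 7 of the 10, from -0.34 in Nmbr-Cited2 and -0.29 in Zeb2-Acvr2a to -0.03 in Myc-Gsdmc, and above 0 in Wwox-Maf (0.07), Klf4-Gm26657 (0.14) and Kcnj2-Sox9 (0.24). In the Zeb2-Acvr2a interval the pairs with old replicate 1 gave 0.01 and -0.11 and those with old replicate 2 gave -0.45 and -0.54. Values there therefore differed more between the old samples than between old replicate 1 and the young samples. Over the 173 intervals with at least 20 peaks, the median was below 0 in 117 and above 0 in 56.

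To ask which kinds of genes neighbour these peaks, peaks were assigned to the nearest coding start and counted over 3 gene lists. Of 78 transcription factor genes of limb and skeleton, 48 were nearest to at least 1 gene desert peak, with 712 peaks in all. Their median log2 fold change was -0.05, close to 0.01 for all autosomal peaks, and at an adjusted p under 0.05, 8 fell (1.12%, background 0.771%) and 5 rose (0.702%, background 0.351%). Of 49 genes for signals, receptors and antagonists of skeletal tissue, 16 were nearest to 234 peaks, with a median of -0.16, 5 falls (2.14%) and 1 rise (0.427%). Of 82 genes of neuronal adhesion and synapses, 68 were nearest to 617 peaks, with a median of -0.30, 20 falls (3.24%) and 1 rise (0.162%). The 9027 peaks nearest to no listed gene had a median of -0.13, with 192 falls (2.13%) and 28 rises (0.310%). Over all gene desert peaks, as given above, 2.12% fell and 0.331% rose. The peaks beside neuronal genes had the lowest median GC content (39.8%, compared with 43.5% and 41.6% beside the other lists), and after the GC and width correction the medians of the 3 lists were 0.00, -0.08 and -0.12.

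Sox9, the master regulator of cartilage, had a median above 0, unlike the other 4 of these genes with most peaks. It was nearest to 59 gene desert peaks, on both sides of the gene and the farthest 819624 bp away, with median deposited values of 9.44 and 13.5 in old and 11 and 9.86 in young MSCs, which overlapped. After RLE scaling the median log2 fold change was 0.33, and 0.22, 0.23, 0.41 and 0.48 in the 4 pairs of samples. Both old samples were above both young samples at 30 of the 59 peaks (50.8%, background 23.2%) and below them at 4 (6.78%, background 24.2%). The correction for GC content and width gave 0.37. At an adjusted p under 0.05, 2 of these peaks rose (background 0.351%) and none fell (background 0.771%). The 2 rises had log2 fold changes of 1.89 and 0.98 (adjusted p = 0.038 and 0.032, limma).

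Around other transcription factor genes the medians were lower. Zeb2 was nearest to 65 peaks with a median of -0.34, Myc to 62 with 0.00, Ebf1 (an early B-cell factor that also acts in stromal cells) to 40 with -0.12 and Nr2f2 (nuclear receptor COUP-TFII) to 39 with -0.10. Pairs of samples disagreed in sign at Myc, Ebf1 and Nr2f2, with -0.07 to 0.02, -0.13 to 0.07 and -0.45 to 0.22. At Zeb2 the pairs with old replicate 1 gave -0.01 and -0.14 and those with old replicate 2 gave -0.36 and -0.54. After the GC and width correction the medians were -0.14 at Zeb2, 0.07 at Myc, -0.01 at Ebf1 and 0.00 at Nr2f2. The listed peak with the highest summed value, over the long noncoding RNA gene Pvt1 and 339479 bp from Myc, had deposited values of 208 and 276 in old and 303 and 332 in young MSCs (adjusted p = 0.71).

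Among the signalling genes, those with most peaks were Acvr2a (36, median -0.22), Inhba (36, -0.09), Fgf9 (26, -0.21), Gdf6 (24, -0.59) and Slit2 (18, -0.60). Pairs of samples disagreed in sign at Acvr2a (-0.61 to 0.03), Inhba (-0.15 to 0.06) and Fgf9 (-0.33 to 0.10), where the corrected medians were -0.13, 0.07 and -0.13. Gdf6 encodes a BMP-family ligand that shapes joints. Its median deposited values were 9.09 and 8.75 in old and 14.7 and 19.0 in young MSCs. Of its 24 peaks, 16 were below (background 24.2%) and 1 above (background 23.2%). Its pairs ranged from -0.16 to -0.88, and 2 of its peaks fell at an adjusted p under 0.05 (background 0.771%). Around Slit2, which encodes a guidance cue, the median deposited values were 9.27 and 6.76 compared with 12.4 and 14.1. Of the 18 peaks of Slit2, 13 were below (background 24.2%) and none above (background 23.2%). Its pairs ranged from -0.81 to -0.37, and none of its peaks passed 0.05. After the GC and width correction the medians were -0.43 at Gdf6 and -0.26 at Slit2. The peak of this list with the highest summed value, 292209 bp from Acvr2a, had 242 and 236 in old and 268 and 315 in young MSCs (adjusted p = 0.99).

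In the neuronal list, Adgrl2 (latrophilin) was nearest to 44 peaks, Flrt2 (its membrane ligand) to 41, Gpc6 (glypican) to 32, Robo1 (receptor of Slit) to 29 and Epha7 (ephrin receptor) to 26. The medians were -0.11, -0.33, -0.29, -0.27 and -0.63, and each of the 4 pairs of samples was below 0 at each of the 5 genes. After the correction they were -0.01, -0.08, -0.15, -0.12 and -0.38. Epha7 had median deposited values of 8.39 and 7.52 in old and 12.9 and 14.3 in young MSCs. At each of the 5 genes the deposited medians of the ages did not overlap. The same held for all autosomal peaks, as given above, so it was not particular to these genes. The 20 peaks of this list that fell at an adjusted p under 0.05 included those near Pcdh7 (log2 fold change -2.14), Flrt2 (-2.12), Negr1 (-2.11 and -1.52), Slitrk5 (-1.87), Robo1 (-1.85), Lrrtm4 (-1.74) and Gpc6 (-1.69 and -1.49), genes of adhesion or synapse formation. Old replicates 1 and 2 had only 2 and 3 counts at the Pcdh7 peak, 0 and 3 at this Flrt2 peak and 4 and 1 at the first Negr1 peak. Young replicates 1 and 2 had 18 and 30, 16 and 16, and 20 and 26 counts there. The 1 rise of the list was another peak nearest to Flrt2 (log2 fold change 1.65, adjusted p = 0.041, limma). The peak of the list with the highest summed value, 316746 bp from Tenm4, which encodes a teneurin, had 206 and 210 in old and 234 and 260 in young MSCs (adjusted p = 0.92).

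**Figure D5:**
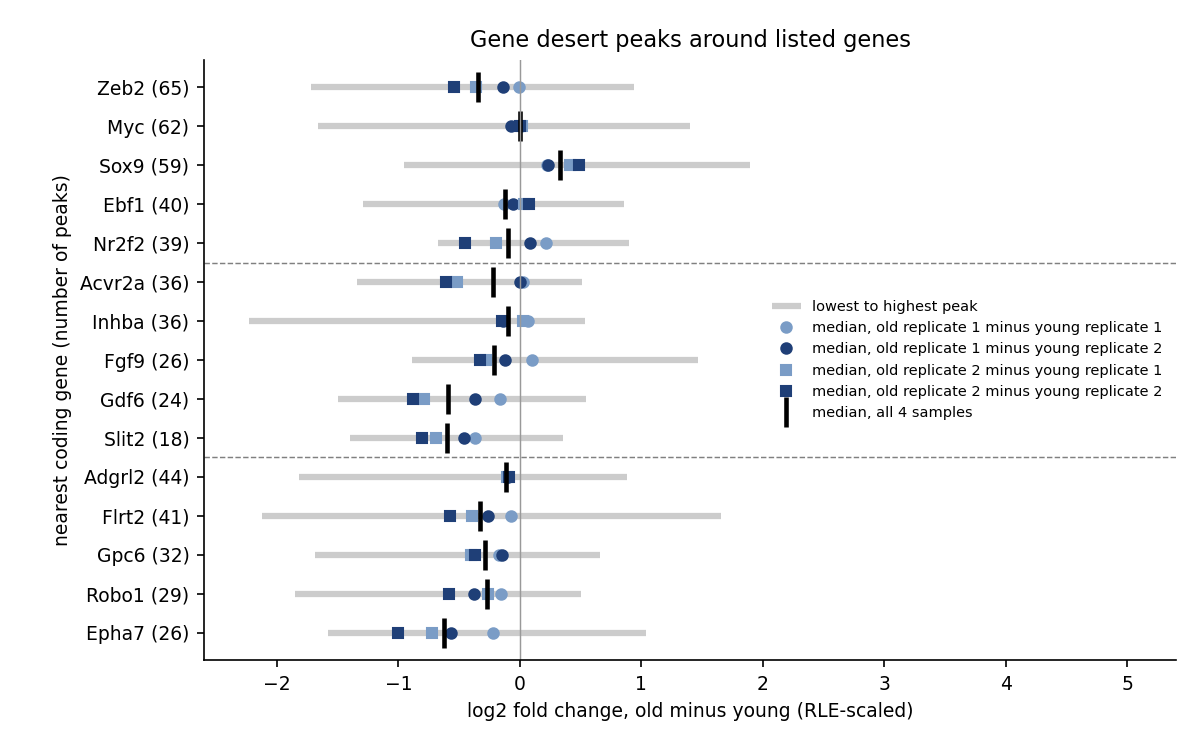
RLE-scaled log2 fold change (x axis) of the gene desert peaks nearest to the 5 genes with most peaks in each of 3 lists (number of peaks in brackets): grey bars span the lowest to the highest peak, symbols give the median in each old-young pair of samples, and black ticks the median over all 4 samples. From top to bottom the blocks are transcription factors, signalling genes and neuronal genes; at Sox9 all 4 pairs lie above 0, and at Gdf6, Slit2 and Epha7 all 4 lie below 0.

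Finally, the change with age was set against motif matches. Gene desert peaks with a RUNX match (3098 peaks) had a median RLE-scaled log2 fold change of -0.19 and those without one -0.12, and the difference had the same sign in all 4 pairs of samples (-0.05, -0.05, -0.10 and -0.11). For TEAD the medians were -0.18 with and -0.12 without a match (pairs -0.02, -0.05, -0.04 and -0.09). For AP-1 they were -0.12 and -0.14, and the pairs disagreed in sign. For the part of the CTCF motif (219 peaks) they were -0.05 and -0.14, with pairs of 0.07, 0.11, 0.05 and 0.17. GC content was not matched in these comparisons, and its part was not tested. The other autosomal peaks gave -0.01 with and 0.02 without a RUNX match. Of the 225 gene desert peaks that fell at an adjusted p under 0.05, 74 (32.9%) held a RUNX match, 67 (29.8%) an AP-1 match and 60 (26.7%) a TEAD match, where the shares over all gene desert peaks were 29.3%, 29.1% and 24.9%. Of the 35 that rose, 6 (17.1%), 11 (31.4%) and 4 (11.4%) did.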

How the data were processed

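ATAC-seq values of 2 old and 2 young mouse MSC samples at 117282 peaks were used. Per the labels, reads had been aligned to mm10, and the submitters' processing notes name Bowtie2 and Picard; the peak caller, versions and filters are not given in the sources used here. The deposited values, named RPKM by the authors, were treated as a score per peak: 100% were whole multiples of 1 step per sample (within 0.01 step), the same at any peak width, hence counts per 10000000 of a library total. Whether these counts are reads was not tested.

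Gene starts, exons and biotypes came from GENCODE vM21, and GC content, soft-masked repeats and sequences from the RefSeq GRCm38 genome. Values were divided by RLE factors, log2(value + 1) was tested with limma 3.58.1 in R 4.3.3 (trend and robust moderation), and p-values were adjusted for the 117282 peaks by Benjamini-Hochberg, with 0.01 as threshold and no filter on low values. Fold changes are on this log2(value + 1) scale and understate changes of weak peaks. Tables were made in pandas 2.3.3 and numpy 2.4.6 (Python 3.11.15), figures with matplotlib 3.10.9, and matches to mitochondrial DNA with blastn 2.17.0. On simulated counts for 117282 peaks with 200 changed, the limma step recovered 90% of the peaks with a log2 fold change of 2, 34% of those with 1, and made 1 false call. All simulated peaks had the same relative spread, and replicates did not differ by class of peak. Changed peaks were not drawn from the weakest ones. These figures check the running of the step and are not error rates for the present samples.

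The peaks, gene lists and motifs were chosen with earlier results of these data known. Named were up to 10 significant peaks in each direction, the 5 of highest mean value, the 3 farthest and the widest peak, those next to the 200 kb limit, the 10 richest intervals, and for each list the 5 genes with most peaks and the peak of highest mean value. The Slc4a3-Epha4 interval, the other significant falls, the rises at Sox9 and the neuronal falls and rise past 0.05 were named after their values were seen. The sequence of 1 peak chosen for display is not reported here. Alternatives were other scalings, pseudocounts, distances, filters, a correction for GC content and width, a replicate block and leaving out each sample; limma-voom on recovered counts and distances from every transcript of a coding gene were added after the data had been examined.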

Additional observations from a re-analysis of the deposited data

How the results depend on the processing

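The direction of the 3 overall values did not reverse under any alternative run, but their sizes moved. The median log2 fold change as deposited (-0.40) became -0.14 with RLE scaling and -0.13 with quantile normalization, and the share of gene desert peaks lower in old MSCs (79.8%) became 61.4% and 60.9%. Without 1 sample each, the first ranged from -0.50 to -0.31, the share from 70.9% to 83.8%, and the median relative to all autosomal peaks (-0.14) from -0.22 to -0.06. The GC and width correction left -0.04 of the last.

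Counts of gene desert peaks past the threshold (18 falls and 4 rises) depended on most choices. Falls numbered 345 with values as deposited, 3 with equal summed values, 3 with pseudocount 0.1, 2 with the filter on weak peaks, 34 with limma-voom on recovered counts, 225 at an adjusted p under 0.05 and 8 beyond 500 kb, and rises 0 with the filter, 35 at 0.05, 11 beyond 100 kb and 2 beyond 500 kb. Plain moderation in limma gave 0 falls and 0 rises, with 1695 and 650 at an unadjusted p under 0.05. Among peaks beyond 200 kb from every transcript of any kind, fewer peaks by construction, there were 0 and 0. Without 1 sample each, falls ranged from 0 to 1053 and rises from 1 to 173. The lone sample of an age was then assumed to vary like the others. The causes were not tested. With the replicate block there were 251 falls and 32 rises, which included all 18 and 4. Same-numbered samples did not deviate together (mean correlation -0.0993). With 2 samples per age, each age gives only 1 difference between replicates, so this cannot show whether same-numbered samples shared a preparation. The labels do not say. The planned edgeR test was not run, and limma-voom on recovered counts took its place.

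With 2 samples per age the spread at a single peak is poorly known, and the median gene desert peak had 27 to 41 counts per sample.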
